A study of Saccharomyces cerevisiae with 23 samples.

Results

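Lines 19-1 and 19-45 are 2 of the 23 mutation accumulation lines of the budding yeast Saccharomyces cerevisiae in this series, and they were singled out because their deposited columns were the most alike of all. They were selected on their deposited values, by setting both columns against the other 21 line columns over all 6334 features, so their likeness and their shared distance from the other lines are descriptions here and carry no test. Mutation accumulation lines are passaged apart from each other, and each collects its own spontaneous mutations. Every line grew unsynchronized in YPD, a rich glucose medium, at 30 °C and was harvested in log phase at an OD600 of about 1.0. RNA of each line was hybridized to a spotted-oligo array of 2 channels together with RNA of 1 reference strain, YPS183, grown the same way to an OD600 of 1.1. All 23 lines carried the dye 555 and the reference the dye 647, with no dye swap. The labels give no genotype, ancestor, ploidy or mutation for any line, and no column held the ancestor.

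Each value was the log ratio between a line and YPS183 for 1 feature, a spotted oligo named by a yeast gene. Values were read as log2, and the table states neither the base nor the numerator. A positive or negative value is therefore a side of the table and not a direction between line and reference. The 23 columns shared the reference strain, and each line had 1 column, so no spread between cultures of a line could be measured. The design names 2 biological replicates for a strain, and no source used here says whether a column averages them. Column SDs ran from 0.245 to 0.583. For many features and lists, the value of 19-1 and of 19-45 is followed below by the lowest, median and highest of the other 21 lines.

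In yeast that grows fast on glucose, genes for ribosomes and ribosome assembly are strongly transcribed, while genes for stress protection, storage carbohydrates and other carbon sources are held low. The transcription factors Msn2 and Msn4 switch on the stress genes when nutrients fall or stress sets in, and ribosomal genes go down at the same time. This opposed programme is the best known axis of variation among yeast expression profiles.

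Over the 6334 features the Pearson correlation of 19-1 with 19-45 was 0.899, the highest of the 253 pairs of lines. The next pairs were 19-21 with 19-44 at 0.800 and 19-44 with 19-45 at 0.774. Among the 210 pairs formed by the other 21 lines the correlation ran from -0.636 to 0.800, with a median of 0.139. The SD of the difference between the 2 lines was 0.212, also the lowest of all pairs, ahead of 19-2 with 19-15 at 0.241. Pairs of other lines had a median SD of the difference of 0.488. The median absolute difference was 0.104 for the 2 lines and 0.252 for the middle pair of other lines. The columns were not copies of each other: no feature had the same value in both, and 5302 features (83.7%) had the same sign.

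**Figure D1:**
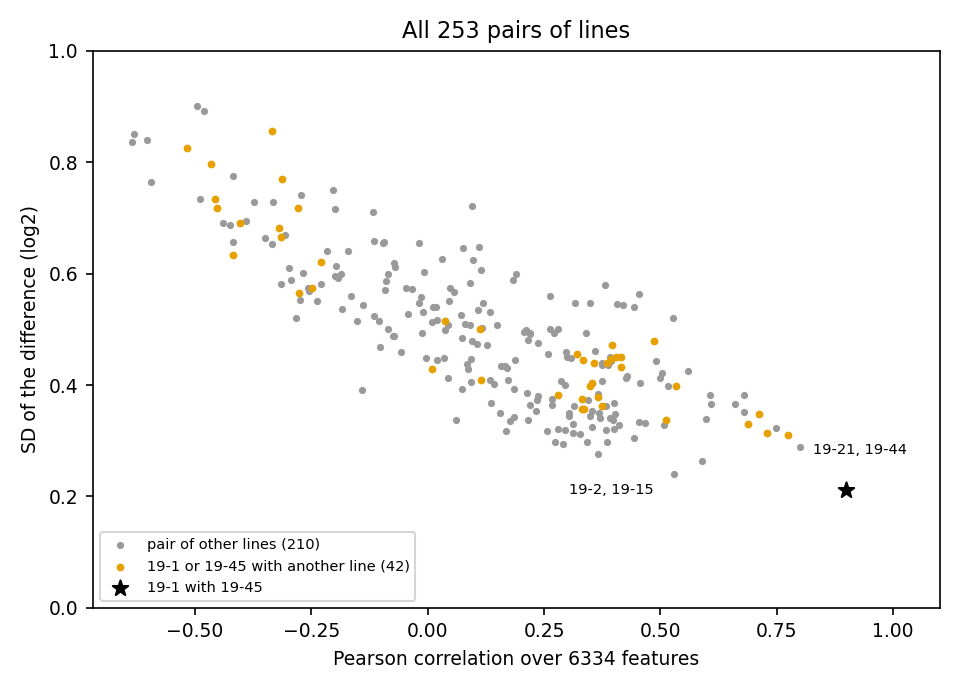
Each point is 1 of the 253 pairs of lines, placed by the Pearson correlation of its 2 columns over 6334 features (x) and the SD of their difference in log2 units (y). The pair of 19-1 and 19-45 (star) lies at 0.899 and 0.212, beyond the 210 pairs of other lines (grey) on both axes, and yellow points pair either line with another.

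By the SD of the difference, the 2 lines were closer than the median pair of other lines for features that varied much or little. Correlations within these subsets or after removals are given for this pair alone. In the fifth of features with the highest SD over the other 21 lines the correlation was 0.930, and in the fifth with the lowest SD it was 0.718. The SD of the difference between the 2 lines was 0.121 over the latter features and 0.357 over the former, where pairs of other lines had medians of 0.218 and 0.818. Once each gene's mean over the other lines was subtracted, the correlation was 0.886. Taking out in addition the leading component of the other lines, which held 41.4% of their variance, left 0.713. Lines 19-21 and 19-44 stood at least as far along that component as 19-1 and 19-45. Scores on the component were 20.6 for 19-1, 28.8 for 19-45, 29.7 for 19-21 and 34.3 for 19-44, while the opposite end was held by 19-10 at -30.9.

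The same 2 lines were the nearest neighbours of both. Line 19-44 correlated at 0.73 with 19-1 and 0.77 with 19-45, and 19-21 at 0.69 and 0.71. At the other end, 19-6 correlated at -0.45 with 19-1 and -0.52 with 19-45, 19-22 at -0.42 and -0.46, 19-4 at -0.40 and -0.47, and 19-10 at -0.31 and -0.33. Lines 19-19 and 19-25 fell below -0.3 with 19-45 alone, at -0.32 each. Because the labels give all lines the same dye, the sign of every column was kept as deposited.

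Features on which both lines stood apart from every other line were counted, and no such count is given for other pairs of lines. Both lay above the highest of the other 21 lines, with a mean 0.5 or more above theirs, in 72 features (1.14% of 6334). Both lay below the lowest by the same margin in 62 (0.979%). Together these were 134 features (2.12%), of which 132 had a current gene name. Without the margin the count was 121 above (1.91%) and 95 below (1.5%), or 216 in all (3.41%). The count above was 124 without line 19-8, and the count below was 95 without line 19-44. Without 19-21 and 19-44 the counts were 175 and 181. With columns scaled by their median absolute deviation they were 44 and 67, and with the signs of the 6 lines that correlated below -0.3 with either line turned they were 23 and 39. The closest of the other 21 lines was 19-44 for 24 of the 72 features above and 19-21 for 17 of the 62 below.

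The 12 features farthest above the other lines encoded products of varied roles. DIP5, a permease for acidic amino acids, was at 0.70 in 19-1 and 0.74 in 19-45, against -2.08, -0.31 and 0.61. GDH2, the glutamate dehydrogenase that releases ammonium, was at 0.67 and 0.93, against -1.25, -0.07 and 0.61. MAL31, a maltose permease, was at 0.67 and 0.87, against -1.66, -0.32 and 0.66, so that 19-1 only just cleared the highest of the others. The water channel gene AQY2 was at 0.89 and 1.50, against -0.61, 0.04 and 0.70. CRS5, a copper metallothionein, was at 0.78 and 0.87 and reached 0.62 at most elsewhere. The sterol carrier gene NPC2 was at 0.77 and 1.26 and reached 0.56 elsewhere, and PSK1, a kinase that adjusts sugar storage, was at 0.61 and 0.90 and reached 0.49.

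EIS1, which encodes a protein of the eisosomes (coats on membrane furrows), was at 0.80 and 0.81, against -1.22, -0.01 and 0.72. PIL1, the main eisosome coat protein, was at 0.51 and 0.55, against -1.07, -0.34 and 0.49. SUR7, a membrane protein of the same furrows, lay on the other side at -0.81 and -0.70, against -1.03, -0.06 and 1.06. YGR130C was at 0.62 and 0.79 and reached 0.61 elsewhere, a margin that is small beside the 0.104 by which the 2 lines differed at the median feature. YDR114C and YJL163C, which have no settled role, completed the 12. YDR114C had the clearest gap of the pair, at 0.74 and 1.01 against -0.33, 0.00 and 0.23.

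Below the other lines, the first was PDR12, the pump that exports weak organic acids. It was at -0.71 in 19-1 and -0.68 in 19-45, against -0.56, 0.90 and 1.57, and it lay 1.43 below the mean of the others. TAT1, a permease for tyrosine and other amino acids, was at -0.90 and -0.77, against -0.74, 0.30 and 1.04. SNZ3 and SNZ2 are close copies of each other in vitamin B6 synthesis. SNZ3 was at -0.79 and -1.17, against -0.72, 0.21 and 1.45, and SNZ2 at -0.69 and -0.89, against -0.54, 0.09 and 1.36. PGI1, which turns glucose 6-phosphate into fructose 6-phosphate, was at -0.90 and -0.82, against -0.74, 0.05 and 1.54.

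SAM2, which makes S-adenosylmethionine, was at -0.96 and -1.06, against -0.64, -0.09 and 0.81. ADO1, the adenosine kinase that works downstream of that cofactor, was at -0.90 and -1.08, against -0.67, -0.06 and 1.06. CYS3, which makes cysteine from cystathionine, was at -1.02 and -1.26 and reached no lower than -0.98 elsewhere. The ribosomal protein genes RPL4B and RPS2 were at -1.21 and -1.44, and at -0.97 and -1.17, with lowest values of -0.81 and -0.90 in the other lines. CIS3, a cell wall glycoprotein, RBD2, a rhomboid protease of the Golgi, and MSC7 filled the remaining places. Of the 134 features, 30 belonged to one of the 44 gene lists used here, which hold 1298 features in all.

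**Figure D2:**
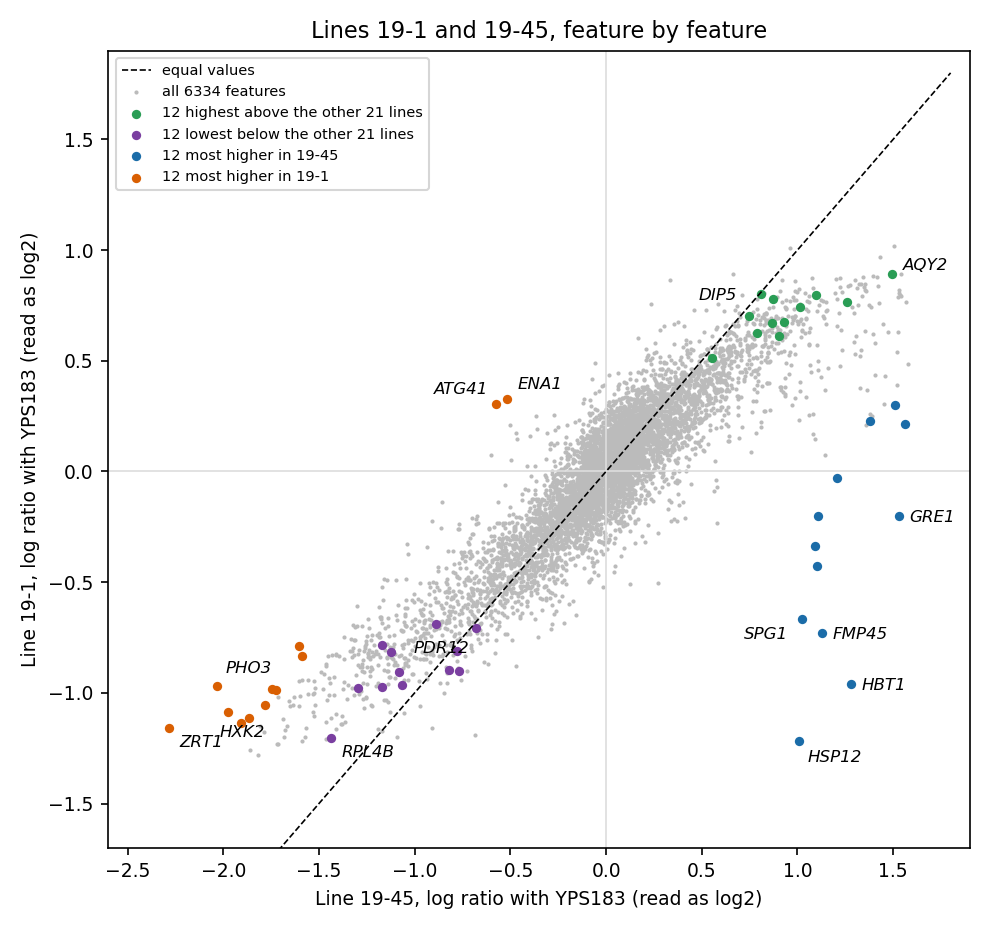
Each grey point is 1 of 6334 features, with the log ratio of 19-45 (x) and 19-1 (y) with YPS183 in log2 units, and the dashed line marks equal values. Green and purple points are the 12 features farthest above and below the other 21 lines, and they lie close to the dashed line or on its flatter continuation, while HSP12, HBT1 and FMP45 (blue) lie far off it.

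Large departures were also counted whether or not the lines left the range of the others. The distance from the other lines' mean was 1 or more in 69 features for 19-1 (1.09%) and in 322 for 19-45 (5.08%). In 60 features both did, 43 on the higher side and 17 on the lower. These were 87.0% of the features of 19-1 and 18.6% of those of 19-45. SUC2, the secreted invertase that splits sucrose, had the highest pair value against the others among list members: 0.81 in 19-1 and 1.36 in 19-45, against -4.22, -0.78 and 0.91.

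Cytosolic ribosomal protein genes were the largest list on the lower side. Over all features both lines lay above the mean of the other lines in 43.3% and below it in 40.5%. Of 138 ribosomal protein genes, 3 lay above in both lines and 134 below in both, and 3 lay below the whole range of the others by the margin of 0.5. The list median was -0.75 in 19-1 and -1.05 in 19-45, against -1.26 (line 19-44), -0.29 and 1.40 (line 19-10). The 2 lines ranked 18 and 22 of 23, so the list was low in them and lower still in 19-44. Lines 19-21 at -0.90, 19-7 at -0.88 and 19-28 at -0.78 also lay below 19-1. RPP0, the stalk protein of the large subunit, was at -1.17 and -1.68, against -1.61, 0.11 and 1.48. Ribosome biogenesis genes lay on the same side with smaller values: 87 of 99 lay below in both lines and 8 above. Their list medians were -0.28 and -0.37, against -0.63 (line 19-44), -0.02 and 0.70, and the 2 lines ranked 17 and 20. NOP1, which methylates ribosomal RNA, was at -1.15 and -1.67, against -2.09, -0.35 and 1.17. Mitochondrial ribosomal proteins lay on the other side, with 59 of 67 above in both lines and 1 below. Their list medians were 0.25 and 0.38, against -0.29, 0.02 and 0.76 (line 19-8).

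Stress and storage genes lay on the higher side. Of 63 measured targets of Msn2 and Msn4, 59 lay above the mean of the others in both lines and 2 below, and the list median was 0.49 in 19-1 and 0.82 in 19-45, against -1.73 (line 19-6), -0.13 and 0.89 (line 19-21). DCS2, a stress-induced regulator of messenger RNA decapping, was at 0.79 and 1.54, against -3.02, -0.37 and 1.60. CTT1, the cytosolic catalase, was at 0.84 and 1.42, against -1.26, -0.01 and 1.38. Of 21 genes of trehalose and glycogen, the storage sugars, 18 lay above in both lines and 1 below. GPH1, which breaks down glycogen, was at 0.57 and 1.06, against -3.69, -0.53 and 1.14, and GDB1, its debranching partner, at 0.58 and 1.06, against -2.50, -0.28 and 0.84.

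These list departures were smaller when the signs of the 6 lines that correlated below -0.3 with either line were turned. Those lines were picked for that correlation, so turning them had to draw the mean of the others toward the pair. The shrinkage follows from that choice and is no separate result. With the signs of those 6 lines turned, the median of pair minus others went from 0.88 to 0.31 for the stress targets and from 0.85 to 0.19 for trehalose and glycogen. It went from -0.82 to -0.46 for ribosomal protein genes, from -0.60 to -0.37 for ergosterol, from -0.47 to -0.29 for thiamine and from 0.51 to 0.17 for hexose transporters.

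Genes for other sugars and for fat use were also high in both. Hexose transporters had list medians of 0.15 and 0.45, and the highest other line was at 0.24, so 19-45 was first of 23 and 19-1 sixth. HXT13, a transporter of polyols and hexoses, was at 0.55 and 1.23, against -1.84, -0.34 and 0.99. HXT1, the low-affinity glucose transporter, lay on the other side at -1.19 and -0.69, against -2.04, 0.28 and 2.27. For sucrose, maltose and galactose genes the medians were 0.22 and 0.33, and the highest other line was at 0.27. Of 24 genes of the peroxisome and fatty acid oxidation, 22 lay above in both lines, and 19-45 was first with a median of 0.37 against at most 0.34 elsewhere. Genes of gluconeogenesis, the glyoxylate cycle and acetate use had medians of 0.36 and 0.67, against -0.36, 0.19 and 0.94. POT1, the thiolase of fatty acid breakdown, was at 0.55 and 1.33, against -0.26, 0.23 and 0.80.

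Ergosterol synthesis was the 1 list of 44 on which both lines lay beyond every other line. Its median over 30 genes was -0.44 in 19-1 and -0.57 in 19-45, against -0.38, -0.02 and 0.48, and 23 of the 30 lay below in both lines. The gap to the next line was smaller than the difference between the 2 lines. MVD1, a mevalonate pathway enzyme, was at -0.78 and -1.14 and no lower than -0.63 elsewhere. ERG3, a sterol desaturase, was at -1.16 and -1.19, against -1.57, 0.06 and 0.90.

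Other biosynthetic lists differed among themselves. Amino acid genes under the regulator Gcn4 had medians of -0.47 and -0.63, with the lowest other line at -0.47, and 51 of 64 lay below in both. ASN2, an asparagine synthetase, was at -1.22 and -1.59, against -1.25, -0.41 and 0.63. Thiamine genes had medians of -0.43 and -0.85, against -0.63, 0.05 and 1.04, with 20 of 24 below in both. Adenine and one-carbon genes, by contrast, had medians of -0.02 and 0.17, against -0.58, 0.03 and 0.79, and NAD synthesis genes 0.13 and 0.16, against -0.05, 0.02 and 0.18. Genes of the G1/S transition lay below in both lines in 38 of 43 cases, with medians of -0.23 and -0.20, against -0.37, 0.02 and 0.51. The 10 histone genes, whose messages are made in S phase, had medians of -0.41 and -0.78, against -1.22, -0.48 and 1.42, so 19-1 lay near the middle of the lines. Lists near the centre included the proteasome, with 11 of 34 above and 14 below, and the tricarboxylic acid cycle, with 9 of 20 on each side.

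**Figure D3:**
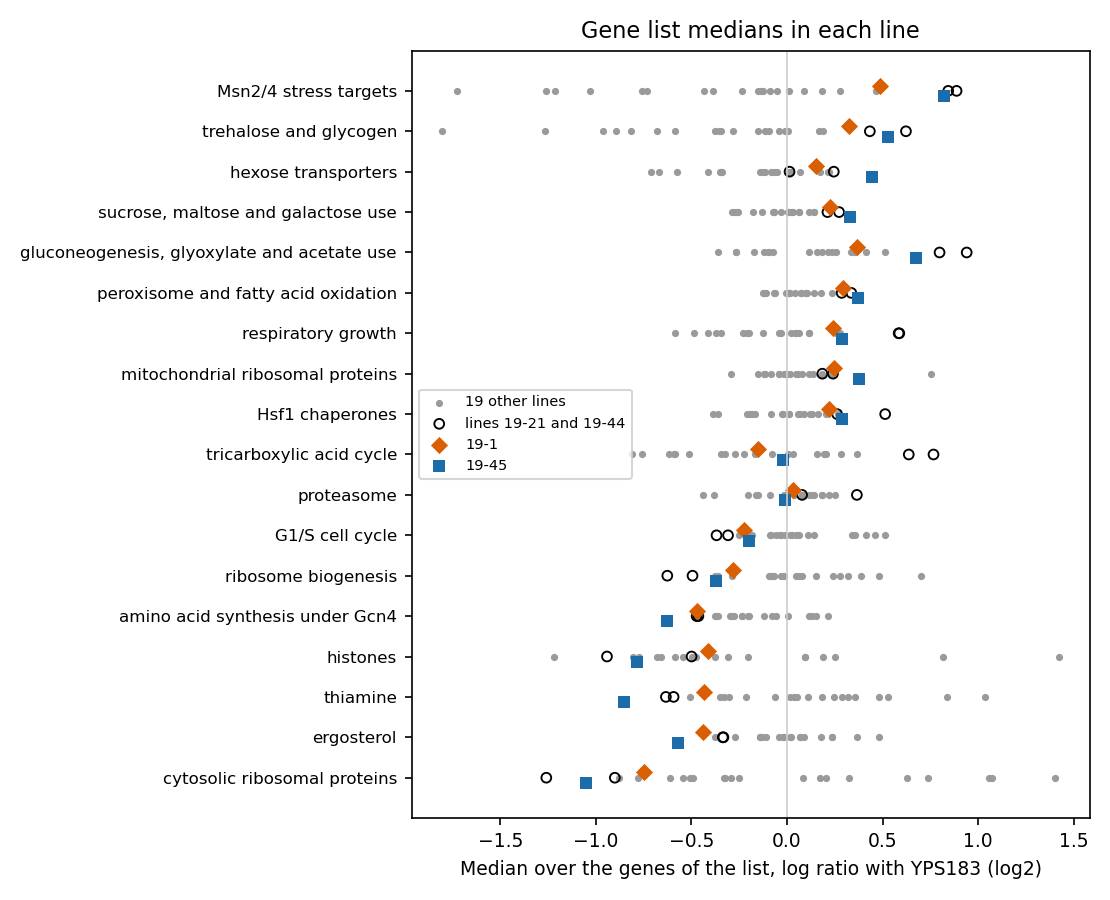
Each row is a gene list and each symbol the median log ratio with YPS183 (log2) over its genes in 1 line, with 19-1 as a diamond, 19-45 as a square, 19-21 and 19-44 as open circles and the other 19 lines as grey points. The 2 lines lie left of all others for ergosterol, at -0.44 and -0.57, while for stress targets 19-45, at 0.82, lies near 19-21 and 19-44 and 19-1 lies lower, at 0.49.

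Mating-type genes, which tell the cell types of yeast apart, were compared between the 2 lines. STE2, the receptor of a cells for alpha-factor, was at -0.02 in 19-1 and 0.02 in 19-45, against -0.50, 0.49 and 4.55. The 9 genes specific to alpha cells or held in the mating cassettes had list medians of 0.09 and 0.10, against -0.30, 0.03 and 0.33. Over the 7 a-specific genes the median absolute difference between the 2 lines was 0.162, above the 0.104 of all features, and their list medians were -0.00406 in 19-1 and 0.06 in 19-45, against -0.16, 0.13 and 1.45. Over those 9 genes it was 0.0945, and over 36 genes of the haploid pheromone response 0.052. Chromosome medians against the other lines were 0.09 on chromosome I in both lines, the largest of any chromosome, where other lines ran from -0.17 to 0.11.

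Where the 2 lines differed, 19-45 was mostly the more extreme. They differed by 0.5 or more in 209 features (3.3%), with 19-1 higher in 92 (1.45%) and 19-45 higher in 117 (1.85%). In 170 of the 209, 19-45 lay farther from 0 on the same side, in 4 it was 19-1, and in 35 the 2 lines lay on opposite sides of 0. A difference of 1 or more was found in 22 features (0.347%), and 19-45 was higher in 20 of them. Line 19-1 had the narrowest range of the 23 columns at both ends, from -1.28 to 1.02, although its SD of 0.354 was the thirteenth highest. Line 19-45 ran from -2.28 to 1.58 with an SD of 0.462, and 379 of its features lay beyond 1 in size against 68 in 19-1.

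The relation between the columns bent at both ends. Features with 19-45 between 0.25 and 0.5 had medians of 0.35 in 19-45 and 0.27 in 19-1. For 19-45 above 1.25 the medians were 1.38 and 0.74, and for 19-45 below -1.5 they were -1.65 and -1.06. After all columns were given the same distribution by quantile normalization, 81 features differed by 0.5 or more and 13 by 1 or more, and 11 of these were among the 22.

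**Figure D4:**
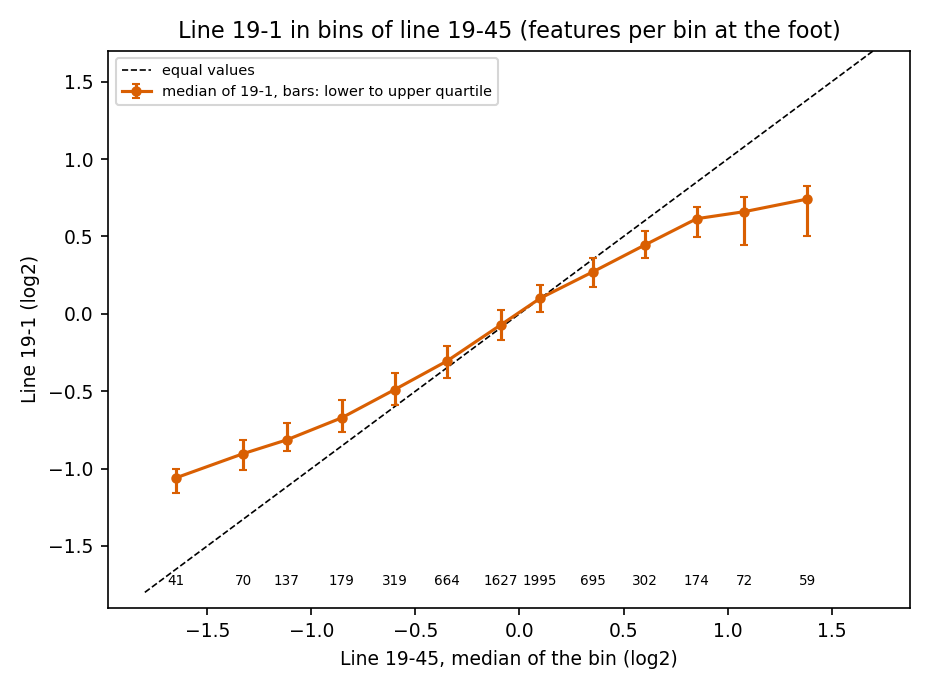
Features were put into 13 bins by their value in 19-45, and points show the bin median of 19-45 (x) against that of 19-1 (y) in log2 units, with bars from the lower to the upper quartile of 19-1. The points follow the dashed line of equal values near 0 and flatten to -1.06 and 0.74 at the ends.

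The largest differences lay off that bend. HSP12, a small membrane-binding heat shock protein and a classic Msn2 and Msn4 target, was at -1.22 in 19-1 and 1.01 in 19-45, against -1.37, 0.40 and 3.07. HBT1, which acts in cell shape during mating, was at -0.96 and 1.28, against -1.03, 0.37 and 1.74. Its neighbour on chromosome IV, FMP45, a membrane protein of the SUR7 family, was at -0.73 and 1.13, against -1.44, 0.44 and 2.22. Line 19-1 ranked 21, 22 and 18 of 23 in these 3 genes, and 19-45 ranked 5, 3 and 4. HSP12 thus opposed most of its list in 19-1, where 57 of the 63 stress targets lay above the median of the other 21 lines. In 19-45 HSP12 went with its list, and 62 of the 63 lay above that median.

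The other 9 of the 12 features with the highest excess of 19-45 over 19-1 had varied roles. GRE1, a hydrophilin induced by drying and salt, was at -0.20 and 1.53, against -0.47 as the lowest and 0.80 as the highest, so 19-45 stood above every other line. SPG1 and SPG4, which are needed for survival in hot stationary phase, were at -0.66 and 1.02, and at -0.43 and 1.10. HXT5, the hexose transporter of slow growth, was at -0.34 and 1.09, against -0.44, -0.02 and 1.59. PYC1, a pyruvate carboxylase, was at -0.03 and 1.21 and reached 0.89 elsewhere. NQM1, a transaldolase, ATO2, an ammonium and acetate transporter, YNL195C and DDR2, a stress gene, completed the 12. In 11 of the 12, 19-1 lay below the median of the other 21 lines, and in all 12, 19-45 was among the 5 highest of 23. After quantile normalization 9 of these 12 still differed by 1 or more, among them HSP12 by -2.69 and HBT1 by -1.99 (19-1 minus 19-45).

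Most of the 12 features with the highest excess of 19-1 over 19-45 were low in both. ZRT1, the high-affinity zinc transporter, was at -1.16 in 19-1 and -2.28 in 19-45, against -3.99, -0.26 and 0.51. PHO3, an acid phosphatase repressed by thiamine, was at -0.97 and -2.03, against -2.31, -0.46 and 1.44. HXK2, the main hexokinase during growth on glucose, was at -1.09 and -1.98, and 19-45 was the lowest of 23. The translation factors TEF4, EFB1 and YEF3, the snoRNA protein NOP58, RPS12, HPF1 and PDC5 showed the same order, and 10 of the 12 were negative in both lines.

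The exceptions were ATG41 and ENA1. ATG41, which acts in autophagy, was at 0.30 in 19-1 and -0.57 in 19-45, against -0.96, -0.47 and 0.26, so that 19-1 was the highest of 23. ENA1, a sodium pump, was at 0.33 and -0.52, against -2.73, -0.95 and 1.10. Its neighbour ENA2 was at 0.21 and -0.50, and its mean over the other 21 lines was -1.10 ± 0.23 (SE, limma adjusted p = 0.00503). ENA1 and ENA2, like PHO3 and PHO5, SNZ2 and SNZ3 or some of the HXT genes, are near copies, and whether their spots separate them was not tested.

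Among whole lists, ribosomal protein genes differed by 0.5 or more in 29 of 138, and 19-1 was higher in 28 of these. The single exception was RPS25A, at 0.26 in 19-1 and 1.06 in 19-45, against -0.79, -0.10 and 1.38, and its neighbour YGR026W on chromosome VII differed in the same direction. Of the stress targets 16 of 63 differed by that much, and 19-45 was higher in 15. Thiamine genes differed by that much in 6 of 24, with 19-1 higher in all 6. The share over all features was 3.3%. SSA3, a chaperone that is induced as glucose runs out, was at 0.37 and 1.36, against -0.37, 0.04 and 0.62.

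**Figure D5:**
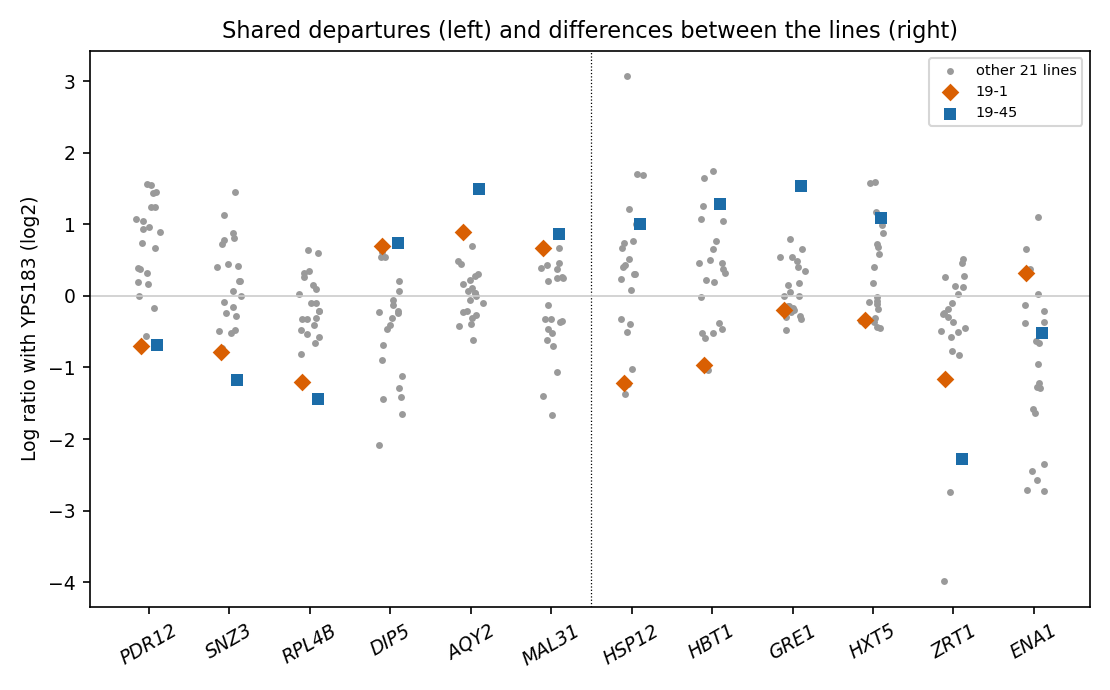
Log ratios with YPS183 (log2) of 12 genes are drawn for 19-1 (diamond), 19-45 (square) and each of the other 21 lines (grey). On the left both lines lie beyond the others, as for PDR12 at -0.71 and -0.68, and on the right they differ from each other, as for HSP12 at -1.22 and 1.01.

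The mean over lines was the quantity that could be tested, and it was fitted with and without the 2 columns. All lines carried the same dye and YPS183 the other, so this mean cannot tell line from dye or reference. With all 23 columns, limma called 584 of 6334 features (9.22%) with adjusted p-values below 0.05, and 253 of them had a positive mean. With 19-1 and 19-45 averaged into 1 column it called 467 (7.37%), and 464 of these were among the 584. Without either line 387 were called (6.11%). Leaving out 1 of the other 21 lines at a time gave 467 to 682 calls, and leaving out 19-20 alone gave the same 467 as averaging the 2 lines. Leaving out other pairs of lines was not run, so the 387 has no such comparison.

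Of the 387 features called over the other 21 lines, both 19-1 and 19-45 lay on the opposite side of 0 in 45 (11.6%), against 2062 of all features (32.6%). In 4 of these 45 the 2 lines also lay outside the range of the other 21 by the margin. PDR12 had a mean of 0.74 ± 0.12 (SE) over the 21 lines (limma adjusted p = 0.000801), while both lines were negative. With all 23 columns its mean was 0.61 and its adjusted p was 0.00576. TAT1 had a mean of 0.31 ± 0.09 over the 21 lines (limma adjusted p = 0.0394) and 0.21 over 23 (adjusted p = 0.212). PHS1, an enzyme that lengthens very long fatty acids, had a mean of 0.25 ± 0.06 over the 21 lines (limma adjusted p = 0.0156; 0.112 over 23) and was at -0.60 in 19-1 and -0.44 in 19-45. The fourth, the subtelomeric reading frame YIL177C, had a mean of -0.26 ± 0.07 (limma adjusted p = 0.0351; 0.0899 over 23) and was at 0.34 and 0.39. These 4 were picked with both lines opposite the mean, so adding the 2 columns had to pull each mean toward 0. The rise in adjusted p over 23 columns follows from that choice and is no separate result. Of these 4, PDR12 alone passed the threshold with all 23 columns.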

How the data were processed

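The authors normalized the log ratio of each array's 2 channels, per the labels, and the deposited values were read as log2 with no further scaling. No source used here gives the array software, background correction, filters or spot averaging. The 6334 features had no missing values, and 5841 were matched to R64 gene names (5623 by locus tag, 194 after a hyphen was restored, 24 by synonym). The 23 lines formed 1 group. Signal over background was not used here, and 1 column per line limits the precision. R 4.3.3 and limma 3.58.1 gave the test of each feature's mean over lines (intercept, eBayes, two-sided, Benjamini-Hochberg over all features, threshold 0.05), which was first tested on simulated data. All else is description. Lines, lists and naming rules were chosen with earlier results of these data known. Named were the 12 highest and 12 lowest features outside the range of the other lines by 0.5 or more in mean. So were the 12 largest differences each way, and up to 4 and 2 members of each of 44 lists. CYS3, YGR026W, YNL194C, ZPS1, THI13, ILV2 and the 4 called features on the opposite side were chosen after their values were seen. Alternatives were scaling, margin, lines left out and the sign of negatively correlated lines. Python 3.11.15 was used with numpy 2.4.6, pandas 2.3.3 and matplotlib 3.10.9.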

Additional observations from a re-analysis of the deposited data

How the results depend on the processing

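The correlation of 0.899 stood between 0.877 and 0.930 under 5 alternatives that could move it (scaling by column spread cannot), and was 0.713 with gene means and the leading component removed and 0.718 in the fifth of features with the lowest SD. The count above the other lines, 72, was 44 (and 67 below) with columns scaled by their median absolute deviation, 230 for 19-45 alone, 116 at a margin of 0.3, 2 at a margin of 1 and 121 with none. The count below, 62, was 95 for 19-1 alone (80 above), 192 for 19-45 alone, 10 at a margin of 1 and 95 with none. Leaving out each of the other lines in turn gave 69 to 124 above and 60 to 95 below. Without 19-21 and 19-44, an alternative chosen after seeing the data, the counts were 175 and 181. With the signs of the 6 lines that correlated below -0.3 with either line turned, also chosen after seeing the data, they were 23 and 39. Differences of 0.5 or more and 1 or more numbered 81 and 13 after quantile normalization. Of the 44 lists, 13 had a median 0.3 or more from that of the other lines, 8 after quantile normalization and 4 with those signs turned, when trehalose and glycogen had 0.19 and hexose transporters 0.17. The mean over lines gave 454 to 682 calls with 1 line left out, 387 without either line and 1298 with array weights. Turning the signs of lines picked for their negative correlation had to draw the mean of the others toward the pair. The causes of the other shifts were not tested. The balance of above against below turned with columns scaled by their median absolute deviation, for 19-1 alone and at a margin of 1. It also turned without 19-20 (71 above and 86 below), without 19-21 and 19-44, and with signs turned. After quantile normalization it did not turn, with 82 above and 55 below. The signed values recomputed, for named genes and 7 lists, kept their sign. No paired analysis was possible because each line is 1 column of a single group.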

Other observations

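In both lines, some related genes lay on opposite sides of 0, while others, such as SNZ2 and SNZ3, lay on the same side. The choice of examples followed a look at their values, so no test was made. BAT2, the cytosolic branched-chain aminotransferase, was at 0.69 in 19-1 and 1.05 in 19-45, whereas its mitochondrial counterpart BAT1 was at -1.01 and -1.53. SNZ1 and SNO1, the vitamin B6 genes of stationary phase, were at 0.66 and 1.45, and at 0.57 and 0.64, whereas SNZ2 was at -0.69 and -0.89. GLK1, the glucokinase, was at 0.77 and 0.96, whereas the hexokinase gene HXK2 was at -1.09 and -1.98. The drug pumps PDR5 and PDR15 were at 0.89 and 1.54, and at 0.77 and 1.56, whereas the related pump PDR12 was at -0.71 and -0.68.

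Of 16 pairs of adjacent genes in which both differed by 0.5 or more between 19-1 and 19-45, 14 differed in the same direction and 2 in opposite directions. Over all 6334 features, 3.3% differed by that much. The share of same direction over all adjacent pairs was not computed, so these counts are a description. Among the 14 were the near copies PHO3 with PHO5 and ENA1 with ENA2, and HXT17 counted in 2 pairs. ADH4 and ZRT1 on chromosome VII had differences (19-1 minus 19-45) of 0.66 and 1.12, HPF1 and ZPS1 on chromosome XV of 0.76 and 0.65, and YNL195C and YNL194C on chromosome XIV of -1.21 and -0.90. The opposed pairs were HXT15 and THI13, at -0.51 and 0.58, and SPG4 and ILV2, at -1.53 and 0.51.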
